A study of Mus musculus with 4 samples.

Results

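The POU2F3 binding sites described here are the 12 of 2828 listed sites whose midpoint falls on mouse chromosome 13 between positions 111000000 and 112000000 of the mm9 build, the region that holds Plk2. The region was chosen by its number of listed sites, so that number and the short gaps between the sites are a description and were not tested. Plk2 was placed near 111.186 to 111.192 Mb. That position is approximate and was not read from an annotation of mm9, so distances to the gene below carry an error of unknown size. Sites were not assigned to genes, because no annotation of mm9 was used.

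The list came from sorted tuft cells of male C57BL/6J mice, taken from the proximal 5 cm of the small bowel, with no mutation or treatment named. The series has 2 samples immunoprecipitated with an antibody against POU2F3, 1 sample with a control IgG and 1 sample of input DNA, and all 4 are of the same strain and cell type. About 10000 sorted cells were fixed with paraformaldehyde, and the sources name 2 pools of cells and 3 mice behind the replicates. Sequencing adaptors were inserted by a transposase into chromatin still held on the beads (ChIPmentation), and the comparison this design implies is POU2F3 enrichment over the controls. Only 1 list of sites was analysed, with no values per sample. No site therefore has a replicate error, the depth behind each site is unknown, and IgG and input values at these sites were not analysed here. The cell type could not be checked against marker genes in a list of sites.

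Tuft cells are rare chemosensory cells of the gut lining, and POU2F3 is the transcription factor on which their formation depends. POU factors of this class recognise an octamer in DNA, and factors of this kind bind at promoters and at distal elements that can lie far from the gene they act on. Plk2, also known as Snk, is a Polo-like kinase. It is induced quickly by serum and other stimuli, takes part in centriole duplication and is best studied in neurons, where it acts on synapses.

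The 12 sites did not surround Plk2 evenly. The gene stood at one end of the stretch, with 1 site before its approximate start, 11 sites after its approximate end and none over it at that position. On the strand given for Plk2 in GRCm38.p6, the plus strand, the 11 sites are on the 3′ side. The region reaches further after the approximate gene than before it. A window of the same length centred on the approximate gene also held 12 sites. The stretch from the first to the last site measured 416 kb, of which the sites themselves covered 6141 bp. Only 1 site lay within 50 kb of the approximate gene, 4 lay within 100 kb, 9 within 200 kb and 10 within 300 kb. All 12 lay within 500 kb.

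The site nearest to the gene had the lowest score of the region. It lay at chr13:111182762-111182883, about 3.1 kb before the approximate start, and was 122 bp wide with a score of 6.88. The score is the authors' own number for each site. Its unit is not stated in any source at hand, and it serves only to rank sites within this list. Among all 2828 sites this one ranked 2419 by score and 2653 by width, counted from the highest. After it came a gap of 83.6 kb without a listed site.

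The promoter of Plk2 is shown because the nearest listed site ended short of it, by about 3 kb on the approximate position. The 250 bases before the start of Plk2, from RefSeq and read on the plus strand of chromosome 13 in GRCm38.p6, follow from 5′ to 3′. Capitals mark TGACGTCA, the letters of a cAMP response element, picked after the sequence was seen. Whether they act as such an element was not tested.
Plk2 promoter: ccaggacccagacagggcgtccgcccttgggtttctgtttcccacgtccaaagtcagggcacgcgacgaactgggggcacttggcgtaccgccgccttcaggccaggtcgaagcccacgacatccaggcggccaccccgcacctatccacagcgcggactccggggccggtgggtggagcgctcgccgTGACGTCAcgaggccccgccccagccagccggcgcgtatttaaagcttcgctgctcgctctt
Searched on both strands from 250 bases before to 50 after the start, the promoter held no match to the octamer ATGCAAAT, to ATGCTAAT or to ATGNAAAT, which includes the first. These letters were found in 1.74%, 0.92% and 5.67% of the 32851 promoters of the table. TGACGTCA reads the same on both strands. It began 62 bases before the start and was present in 1.79% of promoters. The absence of a match says only that these letters are not in this window. Sequences of the 12 sites themselves were not used here.

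The next 3 sites formed a tight group, about 74 to 76 kb after the gene. They filled 1806 bp, with gaps of 500 and 68 bp between them. The first, chr13:111266486-111266976, was 491 bp wide with a score of 7.92. The middle one, chr13:111267477-111267659, was 183 bp wide with a score of 7.06. The third, chr13:111267728-111268291, was 564 bp wide with a score of 11.01 and ranked 418 in the list. The score within the group thus went from rank 2342 to rank 418 across a gap of 68 bp. Whether these are 1 site or 3 was not tested.

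The middle of the stretch held 5 sites, about 134 to 173 kb after the gene. A narrow pair came first. Its sites, chr13:111326180-111326408 and chr13:111330116-111330350, were 229 and 235 bp wide, had scores of 7.48 and 7.51, and stood 3.71 kb apart. After 15.5 kb followed a site of 652 bp at chr13:111345889-111346540, with a score of 10.9 and rank 438. After another 12.1 kb came chr13:111358690-111359147, 458 bp wide with a score of 9.44 and rank 940. The last of these 5, chr13:111364503-111366170, began 5.36 kb further on. At 1668 bp it was the third widest site of the whole list. Its score of 12.6 ranked 174, so it stood higher by width than by score.

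The last 3 sites were single and far from the gene. The first, at chr13:111486091-111486626, about 294 kb away, came after the widest gap between members, 120 kb. It was 536 bp wide, with a score of 9.04 and rank 1131. The site with the highest score of the region lay at chr13:111527585-111528357, about 336 kb after the gene. Its score of 14.0 ranked 89 among all 2828 sites and 4 among the 175 on chromosome 13, and it was 773 bp wide. The farthest member, at chr13:111598881-111599110 and about 407 kb away, was 230 bp wide with a score of 7.78 and rank 1900.

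**Figure D1:**
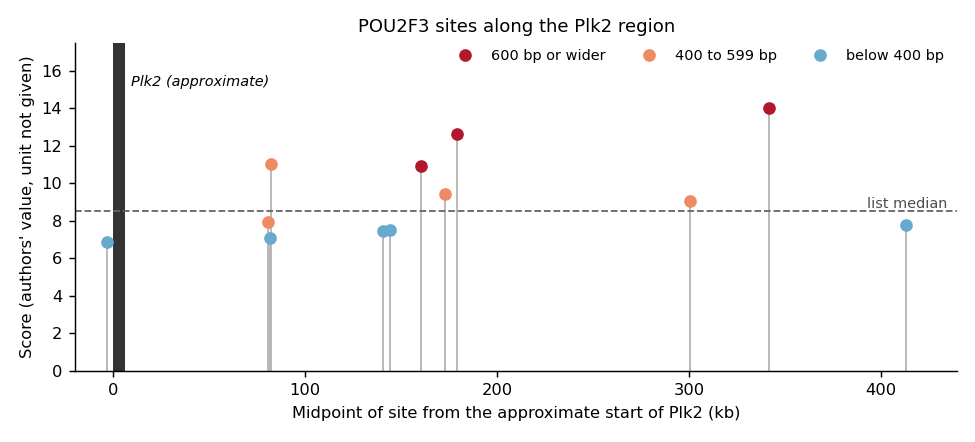
Score of each site (authors' value, unit not given, linear axis from 0) against the distance of its midpoint in kb from the approximate start of Plk2, with colours for width, the approximate gene as a black bar and the median score of the whole list as a dashed line. The single site before the gene has the lowest score, 6.88, and the highest, 14.0, stands about 336 kb past the gene's end.

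The borders of the region did not cut through this stretch. The last listed site before it, at chr13:110460214-110460948, ended 722 kb before the first member. That site was 735 bp wide and had a score of 12.9. The first listed site after the stretch, at chr13:112283996-112284288, began 685 kb beyond the last member and was 293 bp wide with a score of 8.88. These stretches without a listed site ranked 49 and 50 in length among the 174 gaps between successive sites of chromosome 13, whose median was 193 kb. A stretch without a listed site is not shown to lack POU2F3. Of the 1201 windows of 1 Mb that held a site, 6 held 12 or more, this region among them, and the median was 2. This repeats how the region was chosen.

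Members fell into narrow and broad sites with none in between. The 5 narrow ones measured 122, 183, 229, 230 and 235 bp. The 7 broad ones measured 458, 491, 536, 564, 652, 773 and 1668 bp. In the whole list 836 sites, or 29.6%, had a width between 235 and 458 bp. These bounds were taken from the members' own widths, so no member could fall between them. Broad sites were thus 7 of the 12, against 1076 of all 2828 sites at 400 bp or wider, which is 38.0%. Sites of 600 bp or wider numbered 3 of the 12, against 488 in the list, or 17.3%. The median width was 475 bp among members, 259 bp among the other 163 sites of chromosome 13 and 291 bp in the list. The exact 95% interval of the members' median, which takes sites as independent, was 229 to 652 bp and includes both other medians. These shares and medians rest on few neighbouring sites and were not tested.

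The median score of the region was not above that of the list. The median was 8.48 among the members, 8.31 among the other sites of chromosome 13 and 8.53 in the list, and 6 of the 12 members were above the median of the list. The members did spread widely, from 6.88 to 14.0. All 5 narrow sites scored between 6.88 and 7.78, below the median of the list. Of the 7 broad sites, 6 scored above it, and the exception was the 491 bp site of the tight group, at 7.92. Score also rose with width over the whole list, with a Spearman's rho of 0.57. Whether the split by width is sharper in this region than in the list was not tested. Matching shares of the list's narrow and broad sites were not computed. In the upper quartile of the list, above 10.03, were 4 members, with scores of 10.9, 11.01, 12.6 and 14.0. They are 33.3% of the 12, against 25% of the list by definition. The upper quartile of the members themselves was 10.93. This difference rests on few sites and was not tested.

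Score followed width closely within the region. Over the 12 sites Spearman's rho of score against width was 0.96, against 0.57 over the whole list and 0.62 over the other sites of chromosome 13. In the window around Sox9 described below, also of 12 sites, it was 0.91, so a close relation is not particular to the Plk2 region. These are descriptions over sites of 1 list, which share their libraries and their peak calling, and no p-value is given. Over the same 12 sites, rho between distance to the approximate gene and score was 0.55, and between distance and width 0.49. In order along the stretch, 4 of the first 6 sites were narrow, the next 5 were all broad, and the farthest site was narrow again.

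**Figure D2:**
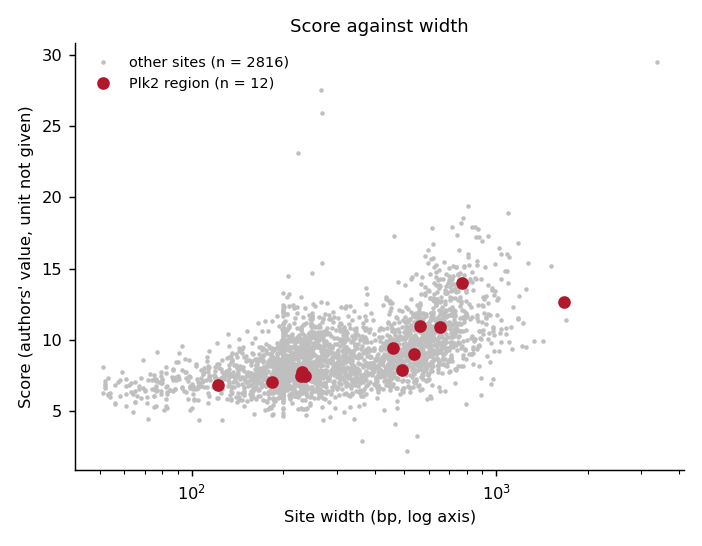
Width of each site in bp (log axis, across) and its score (authors' value, up), with the 12 sites of the Plk2 region in red and the other 2816 in grey. The 5 narrow members lie together at scores below 8, and the 7 broad members run from 7.92 to 14.0.

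Each member was also set beside all listed sites of similar width, within 25% of its own. By this measure 5 members scored above the median of their likes and 7 below it. The site of 773 bp stood furthest above, with a score of 14.0 against a median of 10.8 over 493 sites, and ranked 64 among them. The 564 bp site of the tight group had 11.01 against 9.47 over 775 sites. Its 491 bp neighbour lay furthest below, with 7.92 against 9.04, and ranked 557 of 702. For the widest member the comparison is thin, because only 8 sites including itself were that wide. It ranked 4 among them, with 12.6 against a median of 12.0. All 5 narrow members were below the median of sites as narrow as themselves.

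**Figure D3:**
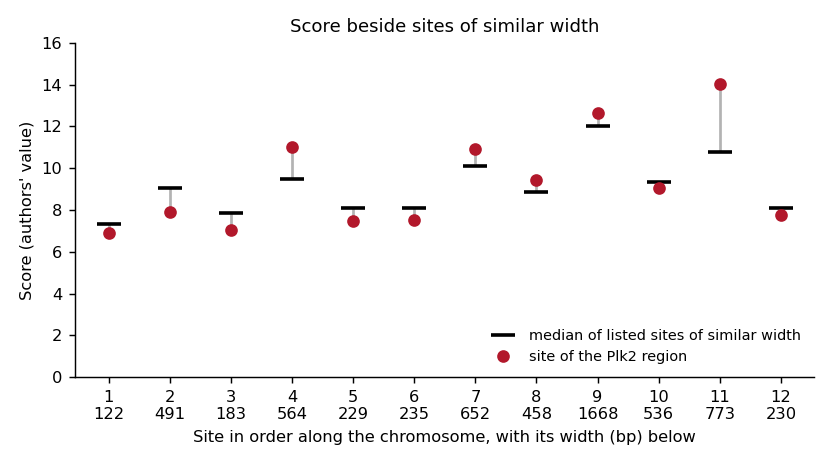
Score of each member (red points, authors' value) in order along the chromosome, with its width in bp below, and the median score of all listed sites within 25% of that width (black bars). Members 4, 7, 8, 9 and 11 stand above the bar, by most at member 11, and the other 7 stand below it.

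The 1 Mb window of chromosome 11 around Sox9, the gene of a transcription factor of the crypt base, held the same number of sites, 12. As for Plk2, the place of Sox9 was not read from an annotation of mm9. Its median width of 497 bp was close to the 475 bp of the Plk2 region, and 7 of its 12 sites were also 400 bp or wider. Its median score was 9.40 against 8.48, and 9 of its sites scored above the list median against 6. Width and score went together there as well, with a rho of 0.91. Median gaps between successive sites were 4.08 kb around Sox9 and 15.5 kb around Plk2, against 255 kb in the list. Both windows were picked for their number of sites, and no difference between them was tested.

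**Figure D4:**
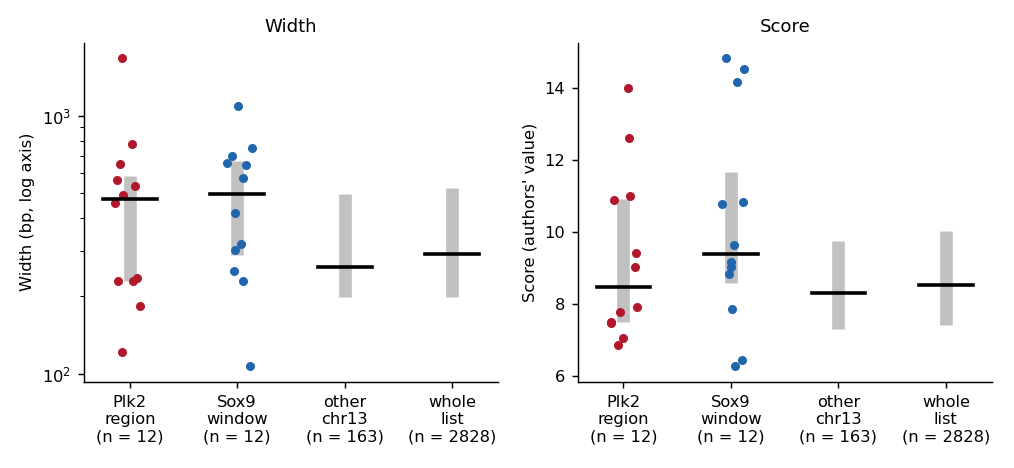
Width in bp on a log axis (left) and score (right, authors' value, axis not from 0) in the Plk2 region, the Sox9 window, the other sites of chromosome 13 and the whole list, with points for single sites in the first 2 sets, black lines for medians and grey bars from the lower to the upper quartile. The median width is 475 bp in the Plk2 region and 291 bp in the list, while the median scores, 8.48 and 8.53, are close.

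The genes that flank Plk2 were taken from a RefSeq table of GRCm38.p6, for names and order only, since its coordinates are of another build than those of the sites. Plk2 (gene ID 20620) is 5801 bp long in that table. Its next protein-coding genes on the lower side are Gapt, Rab3c and Pde4d. Gapt encodes an adaptor protein of blood cells, Rab3c a small GTPase of secretory vesicles and Pde4d a phosphodiesterase that breaks down cAMP. On the higher side, where the 11 sites lie, they are Actbl2, Gpbp1 and Mier3. Between Plk2 and Actbl2, an actin-like gene, the table lists no protein-coding gene but 7 long non-coding RNAs and 2 pseudogenes, and Gm32990 comes first. Between Gapt and Plk2 it lists 1 long non-coding RNA, Gm41058. Which of these genes lie nearest to a given site was not analysed here.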

How the data were processed

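The labels describe ChIPmentation of sorted intestinal tuft cells, fixed with 1% paraformaldehyde for 10 minutes and sonicated to 200 to 700 bp, with 0.6 µg of antibody. FastQC, MACS2, Bowtie 0.12.8, SAMtools 1.3.1 and mm9 are named, without role or order, per the submitters' processing notes. Pooling, control and threshold of the peak calling are not given in the sources used here, and they can set how many sites are listed and how wide they are. The deposited list has no header and gives each site a start, an end and a score, with no values per sample. Starts were converted to 1-based positions. Members, lists and alternatives were chosen with earlier results of these data known. Width is end minus start of the deposited interval, ranks count from the highest value, and gaps run from edge to edge. The text names all members, the nearest site beyond each border, Plk2, the 3 nearest protein-coding genes on each side and the other Polo-like kinases. No test was run, since sites are not replicates and the labels' 2 ChIP samples have no separate values. Functions were tested on made-up intervals with known answers, and 13 of 13 checks passed. Python 3.11.15, NumPy 2.4.6, pandas 2.3.3, SciPy 1.17.1 and Matplotlib 3.10.9 were used. Alternatives covered the border rule, score threshold, joining of close sites, gene position and distance.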

Additional observations from a re-analysis of the deposited data

How the results depend on the processing

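Of 21 alternative values of 6 results, 15 stayed within 1.5 times the value given, or, for medians, within the exact 95% interval of the median (229 to 652 bp for width, 7.48 to 11.01 for score), and 6 moved. That interval takes sites as independent and, with 12 sites, is wide. Any overlap and a window of the same length centred on the gene held the same 12 sites. Values under those settings could therefore not move, and the tally is no measure of robustness for them. The number of sites fell from 12 to 6 with sites at or above the median score and to 4 with the upper quartile, which follows from fewer sites. It was 10 and 8 after joining within 1 and 10 kb. Within 50 kb of the gene lay 1 site and within 200 kb 9, against 4 within 100 kb. The nearest site, 3.12 kb before the gene, would lie 0.76 kb past its end were the gene 10 kb lower, and 13.12 kb before it were the gene 10 kb higher. At some positions between the given one and 10 kb lower, that site would lie over the gene. Its side therefore depends on the approximate gene position, and the 11 others stayed on the same side. No paired analysis was possible because the list has no values per sample, and no replicate could be left out.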

Other observations

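The other Polo-like kinases, Plk1, Plk3, Plk4 and Plk5, act in mitosis, stress responses, centriole duplication and, for the last, outside the cell cycle. None of their 4 promoters of 300 bases held ATGCAAAT, ATGCTAAT, ATGNAAAT or TGACGTCA. Over all promoters the shares were 1.74%, 0.92%, 5.67% and 1.79%, so most sets of 4 promoters would hold none of a given motif. TGACGTCA was picked from the promoter of Plk2, so its presence there was fixed by that choice and does not set Plk2 apart. The GC content was 66.3% in the promoter of Plk2, against a median of 52.7% over all promoters. It was 57.7% for Plk1, 62.7% for Plk3, 50% for Plk4 and 66.7% for Plk5. Whether POU2F3 sites lie near these genes was not analysed here.

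Runs of 12 consecutive sites on a chromosome numbered 2592, with overlaps, and 26 of them were shorter than the 416 kb of the Plk2 stretch. The median run measured 8330 kb. This describes the measure by which the region was chosen.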
